A study of Homo sapiens with 14 samples.

Results

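The 9 genes EFR3B, CLU, C9orf169 (current symbol CYSRT1), PEG10, BAIAP3, CLIC3, RNF224, TPPP and SERPINI1 were described out of the 13734 genes in the deposited table. They were chosen by their large values in JQ1-treated over DMSO-treated cells, so their JQ1 and DMSO values are given as a description, with no test. The RNA came from MDA-MB-231, a long established human line from a breast cancer of the basal, claudin-low kind, and 14 libraries form 7 groups of 2. Cells had received control siRNA, 1 of 2 siRNA mixes against YAP and TAZ (mix 1, mix 2) for 48 h, or 1 of 2 mixes against BRD genes (mix A, mix B) for 72 h, all with a lipid reagent. Other cells had received JQ1 at 1 µM for 24 h, or its solvent DMSO. For control siRNA and for DMSO no time of harvest is labelled. The question was whether depleting the BRD genes, or YAP and TAZ, raised the genes that stood high with JQ1. Values are RPM, the reads of a gene with each library brought to a common total, times a scaling factor of the authors (scaled RPM), and differences are on the log2(value + 1) scale with their standard error (SE). A gene was called higher or lower at an adjusted p under 0.05 in a limma fit of the 13674 genes that reached 1 in 2 or more libraries. Nothing in the labels says that the 2 libraries of a group are separate cultures, so the p-values reflect a spread between libraries that may be technical.

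The BET proteins, which include BRD2 and BRD3, bind acetylated histone tails through their bromodomains and help recruit the machinery that releases paused RNA polymerase. JQ1 occupies the bromodomain pocket and displaces the BET proteins from chromatin, and siRNA instead lowers the amount of the proteins. BET inhibitors lower transcription of many genes and are also known to raise others, HEXIM1 being a common marker of the response. YAP1 (YAP) and WWTR1 (TAZ) are co-activators of the Hippo pathway that reach DNA mainly through TEAD factors. Several of the 9 genes are best known from brain or placenta: TPPP from oligodendrocytes, SERPINI1 and BAIAP3 from neurons and neuroendocrine cells, and PEG10 from placenta.

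The upstream windows of 5 of the genes are shown for contrasts described here. EFR3B had the largest JQ1 difference, and C9orf169 and RNF224 lie next to each other. CLIC3 was lower after BRD siRNA, with a call for mix B but not for mix A. SERPINI1 was higher after every siRNA mix, as were CLU, PEG10 and BAIAP3, whose windows are not shown. Each window holds the 250 bases before an annotated start, 5′ to 3′ on the gene's own strand, from RefSeq (GRCh38.p14). For EFR3B 2 windows were listed and for BAIAP3 3, of which only 1 each was read. Capitals mark every match, on either strand, to GGGCGG (the GC box of SP factors) or TGANTCA (the AP-1 site). EFR3B lies at chr2:25041826-25042075 (plus strand), C9orf169 at chr9:137224924-137225173 (plus), RNF224 at chr9:137227252-137227501 (plus), CLIC3 at chr9:136996569-136996818 (minus) and SERPINI1 at chr3:167735471-167735720 (plus).
EFR3B: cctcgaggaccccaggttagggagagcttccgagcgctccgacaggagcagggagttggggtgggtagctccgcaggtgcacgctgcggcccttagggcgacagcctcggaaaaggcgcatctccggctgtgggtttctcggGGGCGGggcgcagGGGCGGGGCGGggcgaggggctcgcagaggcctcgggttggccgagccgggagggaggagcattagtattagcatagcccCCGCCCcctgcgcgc
C9orf169: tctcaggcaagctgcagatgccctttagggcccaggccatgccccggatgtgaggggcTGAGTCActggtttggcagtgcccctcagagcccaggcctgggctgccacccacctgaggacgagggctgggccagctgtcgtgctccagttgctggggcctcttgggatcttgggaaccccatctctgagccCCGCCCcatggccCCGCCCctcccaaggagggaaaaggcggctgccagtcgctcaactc
RNF224: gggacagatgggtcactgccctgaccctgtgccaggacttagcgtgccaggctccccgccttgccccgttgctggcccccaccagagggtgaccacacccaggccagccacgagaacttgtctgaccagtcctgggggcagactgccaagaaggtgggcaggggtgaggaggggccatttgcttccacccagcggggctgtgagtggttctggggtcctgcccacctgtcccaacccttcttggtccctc
CLIC3: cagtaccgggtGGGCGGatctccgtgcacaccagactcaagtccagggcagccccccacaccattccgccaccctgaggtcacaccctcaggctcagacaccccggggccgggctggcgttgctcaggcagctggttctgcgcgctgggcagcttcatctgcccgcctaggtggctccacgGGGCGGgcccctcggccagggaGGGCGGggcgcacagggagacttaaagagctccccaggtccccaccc
SERPINI1: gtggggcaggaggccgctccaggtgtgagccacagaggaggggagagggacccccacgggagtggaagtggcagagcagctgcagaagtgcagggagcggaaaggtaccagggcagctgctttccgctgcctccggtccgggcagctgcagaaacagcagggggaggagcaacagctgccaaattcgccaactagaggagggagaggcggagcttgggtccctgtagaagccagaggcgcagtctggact
A window was read for 7 of the 9 genes, without CLU and PEG10. Its GC content ran from 64.8% (SERPINI1) to 84% (TPPP), against a median of 58% over the 35114 windows of the same length. GC boxes numbered 4 for EFR3B, 2 for C9orf169, 5 for BAIAP3, 3 for CLIC3, 10 for TPPP and 0 for RNF224 and SERPINI1. At least 1 GC box was present in 42.6% of all windows. TGANTCA was present once in C9orf169 and once in BAIAP3, and in 6.57% of all windows. GGAATG, a TEAD-type site, was present once in CLIC3 and in 11.9% of all windows. CCAAT was present once in TPPP and in 32% of all windows. TATAAA (10.7% of all windows) and CACGTG (6.35%) matched none of the 7 windows. A match describes letters only, and the reads had been counted on hg19, so the windows carry no measurement of their own.

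Depth ran from 15741695 to 37311326 reads in genes, with a median of 23539829. In each group the 2 libraries differed beyond sampling noise (chi-square per gene 3.44 to 10.6). The siRNAs lowered the RNA of the targets examined, to unequal degrees. YAP1 fell by 2.91 and 3.13 on the log2 scale after mix 1 and mix 2 (limma adjusted p = 1.93e-18 and 2.39e-19), and WWTR1 fell by 2.94 and 3.26. BRD3 fell by 1.57 and 1.59 after BRD siRNA mix A and mix B. BRD2 fell only by 0.41 and 0.65, from a mean of 252 in control siRNA to 189 and 160. No other BRD gene was examined as a target, and protein was not examined. With JQ1, BRD2 was 1.91 higher than in DMSO (mean 249 in DMSO, 937 in JQ1). BRD2 RNA thus moved in opposite directions with JQ1 and with the BRD siRNA mixes.

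Against DMSO, the 9 genes had JQ1 log2 differences of 2.78 (SERPINI1) to 5.10 (EFR3B), and by size they held places 1, 2, 3, 4, 6, 9, 17, 23 and 42 among all genes tested. All 9 passed the call rule, which 37.6% of all genes passed in this direction and 36.3% in the other, but the members were selected on this contrast and nothing is read from that count. After BRD siRNA (both mixes together), 6 of the 9 were called higher, 2 lower and 1 neither. Over all genes tested, 37.6% were called higher and 37.6% lower. The 6 were EFR3B, CLU, C9orf169, PEG10, BAIAP3 and SERPINI1, the 2 were CLIC3 and TPPP, and RNF224 was not called. After YAP/TAZ siRNA all 9 were called higher and 0 lower, where 43.1% of all genes were higher and 35.9% lower. The calls of EFR3B and TPPP were lost with edgeR and DESeq2. EFR3B was not called with mix 1 alone, nor TPPP with mix 2 alone. Both siRNA comparisons share the same 2 control siRNA libraries, which have no labelled time of harvest. The treated libraries were taken at 72 h (BRD siRNA) and 48 h (YAP/TAZ siRNA). Time therefore cannot be told apart from the target in these comparisons. The median log2 difference of the 9 genes was 0.95 after BRD siRNA and 1.44 after YAP/TAZ siRNA, beside -0.0047 and 0.07 over all genes.

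**Figure D1:**
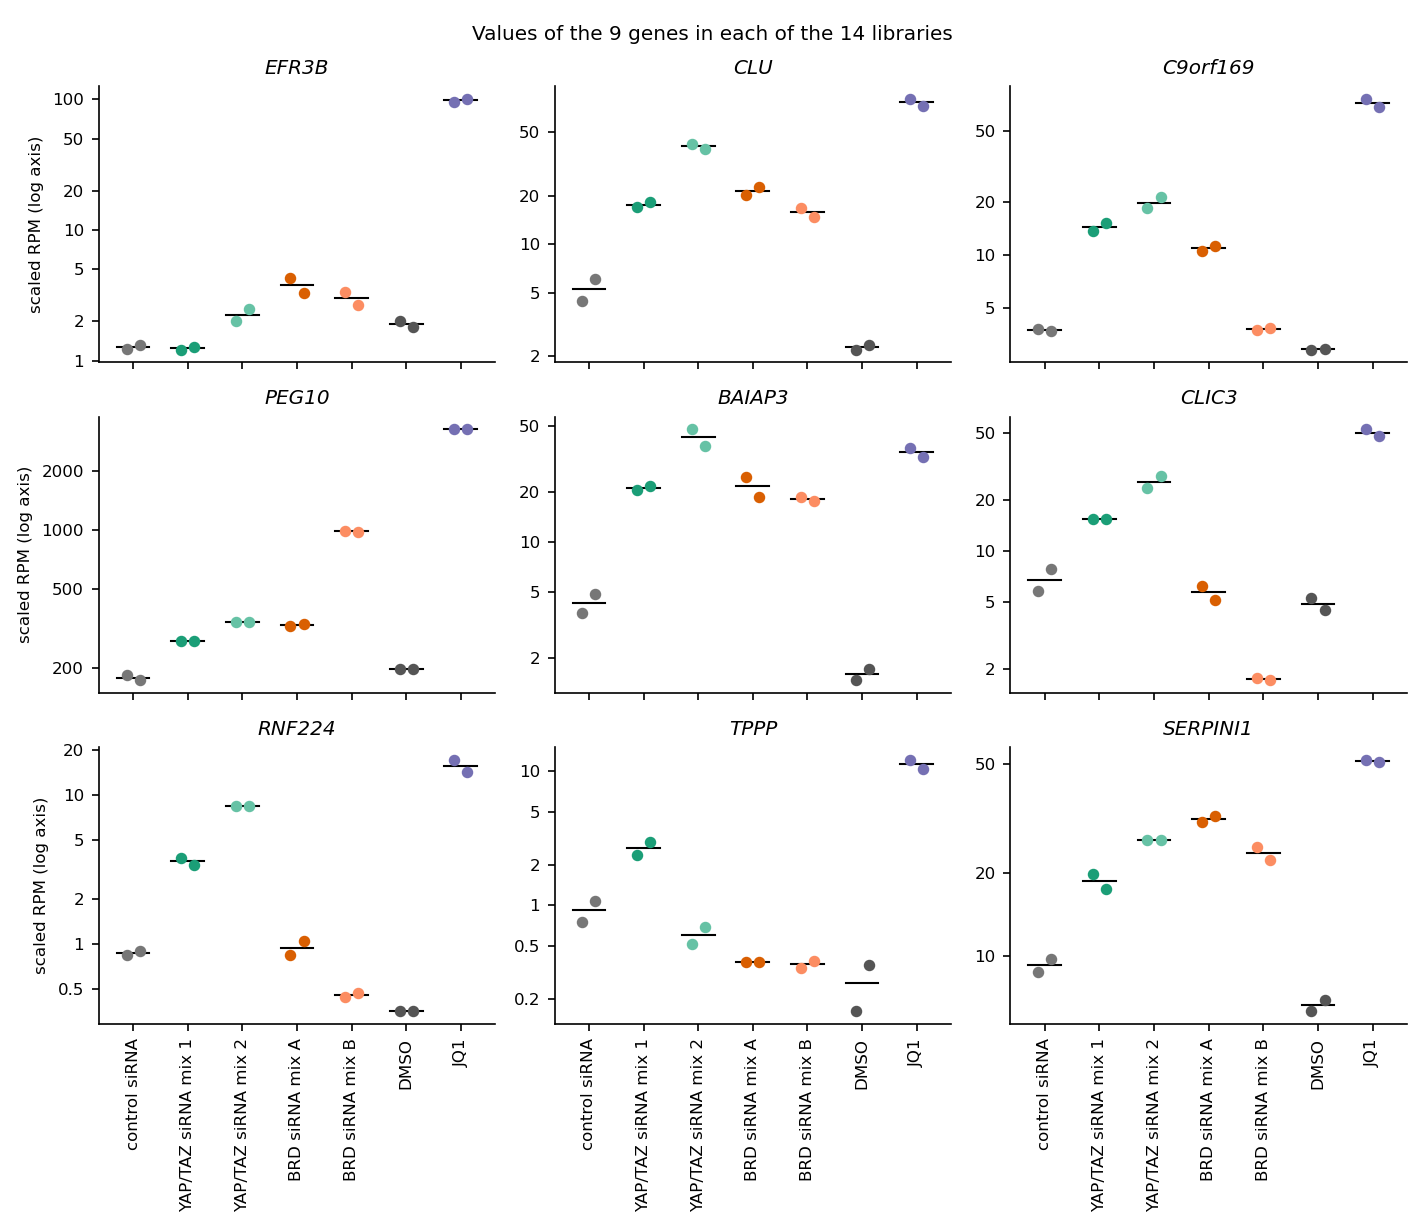
Scaled RPM (log axis) of the 9 genes in each library, 1 panel per gene, with points for the 2 libraries of each group and a black line at their mean. The JQ1 libraries are the highest of the 7 groups in 8 panels, whereas in the BAIAP3 panel the YAP/TAZ siRNA mix 2 libraries are above them.

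EFR3B and BAIAP3 act at membranes. EFR3B is a palmitoylated protein that anchors the lipid kinase PI4KA at the plasma membrane, and BAIAP3 is a member of the UNC13 family that works in vesicle traffic and dense-core vesicle release. EFR3B stood at 2.01 and 1.82 scaled RPM in DMSO and at 95.8 and 102 with JQ1. In control siRNA it stood at 1.23 and 1.32, in BRD siRNA mix A at 4.31 and 3.33, and in mix B at 3.37 and 2.69. The YAP/TAZ siRNA libraries gave 1.21 and 1.28 (mix 1) and 2.00 and 2.48 (mix 2). All 4 BRD siRNA libraries were thus above the 2 control siRNA libraries without overlap, and all 12 libraries other than JQ1 were far below the JQ1 level. The ratio of means was 51.5 for JQ1 over DMSO and 2.69 for BRD siRNA over control siRNA. By the limma test EFR3B rose by 0.95 with BRD siRNA (SE 0.110, adjusted p = 1.18e-07). After YAP/TAZ siRNA the difference was 0.24 (SE 0.110, limma adjusted p = 0.0492). That call was lost with edgeR (adjusted p = 0.128) and DESeq2 (0.221) on the recovered reads, and for 5 of the 6 libraries concerned when that library was left out (limma adjusted p 0.0645 to 0.185). YAP/TAZ siRNA mix 2 replicate 1 was the exception (0.0272).

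BAIAP3 stood at 1.46 and 1.71 scaled RPM in DMSO and at 36.9 and 32.6 with JQ1. Control siRNA gave 3.73 and 4.88, BRD siRNA mix A 24.7 and 18.6, and mix B 18.6 and 17.6. YAP/TAZ siRNA gave 20.4 and 21.6 with mix 1 and 47.8 and 37.9 with mix 2. Every siRNA mix was above control siRNA without overlap, and mix 2 of YAP/TAZ siRNA was also above both JQ1 libraries. With BRD siRNA BAIAP3 rose by 1.97 (SE 0.113, limma adjusted p = 1.64e-12), and with YAP/TAZ siRNA by 2.55 (SE 0.113, limma adjusted p = 1.65e-14). It was the member with the largest difference in both siRNA comparisons. DMSO lay below control siRNA for this gene, with a log2 difference of -1.03, so the JQ1 ratio of 21.9 and the BRD siRNA ratio of 4.61 start from unequal bases.

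Counts for the other genes of each member's machinery are read here and in what follows against the shares of all genes, 37.6% higher and 36.3% lower with JQ1 and 37.6% each way after BRD siRNA. Of the 7 other measured genes of the PI4KA complex, JQ1 raised 4 and lowered 1, and BRD siRNA raised 3 and lowered 3, which for BRD siRNA is near the share of all genes. TTC7B, a scaffold of the complex, fell by 1.41 after BRD siRNA. Their median differences were 0.55 and -0.05. TMEM150A, a membrane partner of the complex, had the largest JQ1 difference (1.96, from a mean of 2.27 in DMSO to 11.7). EFR3A, the paralog of EFR3B, rose by 0.56 with JQ1 and 0.67 with BRD siRNA and fell by 1.00 after YAP/TAZ siRNA (limma adjusted p = 6.51e-08, 3.79e-10 and 4.61e-13). Of 10 other measured genes of the UNC13 family and regulated secretion, JQ1 raised 6 and lowered 3, with a median of 0.53 beside 0.01 over all genes. UNC13B, which acts in vesicle priming, rose by 1.53 with JQ1, and UNC13D fell by 0.62 with JQ1 and by 0.82 and 1.40 after BRD siRNA mix A and mix B.

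CLU and SERPINI1 encode secreted proteins. CLU (clusterin) is an extracellular chaperone that also restrains complement, and SERPINI1 (neuroserpin) is an inhibitor of tissue plasminogen activator, the product of PLAT. CLU stood at 2.20 and 2.37 scaled RPM in DMSO and at 80.7 and 72.1 with JQ1. Control siRNA gave 4.42 and 6.08, BRD siRNA mix A 20.2 and 22.8, and mix B 16.9 and 14.7. YAP/TAZ siRNA gave 17.0 and 18.4 with mix 1 and 42.4 and 39.3 with mix 2. None of the 7 groups overlapped its neighbour in the order of means, which ran from JQ1 through YAP/TAZ mix 2, BRD mix A, YAP/TAZ mix 1, BRD mix B and control siRNA down to DMSO. With BRD siRNA CLU rose by 1.65 (SE 0.0974, limma adjusted p = 2.72e-12), a ratio of 3.56. With YAP/TAZ siRNA it rose by 2.17 (SE 0.0974, limma adjusted p = 2.06e-14), a ratio of 5.57. With JQ1 the ratio to DMSO was 33.4.

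SERPINI1 stood at 6.32 and 6.93 scaled RPM in DMSO and at 51.7 and 50.7 with JQ1. Control siRNA gave 8.79 and 9.75, BRD siRNA mix A 30.8 and 32.3, and mix B 24.9 and 22.5. YAP/TAZ siRNA gave 19.9 and 17.6 with mix 1 and 26.5 and 26.4 with mix 2. The groups did not overlap, and every siRNA mix lay between control siRNA and JQ1. With BRD siRNA SERPINI1 rose by 1.46 (SE 0.0749, limma adjusted p = 2.71e-13), and with YAP/TAZ siRNA by 1.18 (SE 0.0749, limma adjusted p = 6.59e-12). It had the smallest JQ1 difference of the 9 genes, with a ratio of 7.73 to DMSO beside 2.98 for BRD siRNA over control siRNA. In the order of JQ1 differences its neighbours, which are not among the 9, were SMIM14 at 2.79 and ANGPTL6 at 2.77.

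PLAT rose by 2.74 with JQ1, 3.39 after BRD siRNA and 0.78 after YAP/TAZ siRNA (limma adjusted p = 3.8e-19, 1.95e-21 and 5.11e-12). PLAU, the urokinase-type activator, fell by 2.12, 1.18 and 3.03 in the same comparisons. Among the 10 measured plasminogen activators and serpins other than SERPINI1, JQ1 raised only PLAT and SERPINE2 (1.67) and lowered 5, and BRD siRNA raised 7 and lowered 3. For clusterin, 6 extracellular chaperone and complement regulators were measured besides it: JQ1 raised 4 and lowered 1, BRD siRNA raised 4 and lowered 1, and YAP/TAZ siRNA raised all 6, beside 43.1% of all genes. CD59, which blocks the membrane attack complex, had the largest difference of these with JQ1 (1.01) and with BRD siRNA (1.52). After YAP/TAZ siRNA, CD46 differed by 0.97 with mix 1 and -0.30 with mix 2, and CD55 was not called with mix 1. CFI and VTN were near the floor, with means of 0.344 and 0.110 scaled RPM in control siRNA. Of 6 clusterin and ApoE receptors, 4 rose and 1 fell with JQ1, and LRP1 rose by 2.03 after YAP/TAZ siRNA.

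PEG10 is an imprinted gene derived from the Gag and Pol genes of a retrotransposon, and its product can form capsid-like particles. It stood at 197 and 197 scaled RPM in DMSO and at 3245 and 3242 with JQ1, a ratio of 16.5. Control siRNA gave 183 and 172, BRD siRNA mix A 326 and 332, and mix B 992 and 979. YAP/TAZ siRNA gave 273 and 273 with mix 1 and 339 and 343 with mix 2. The groups did not overlap, and the mix B libraries stood between the other siRNA libraries and JQ1. With BRD siRNA PEG10 rose by 1.67 (SE 0.0444, limma adjusted p = 1.68e-17). Mix A gave 0.88 and mix B 2.46, and mix B exceeded mix A by 3.00-fold in the mean (log2 difference -1.58 for A minus B, SE 0.0513, limma adjusted p = 1.17e-15). After YAP/TAZ siRNA it rose by 0.78 (SE 0.0444, limma adjusted p = 1.2e-12). PEG10 rested on 2864 to 92344 reads per library, the deepest counts among the 9 genes.

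Of 9 other measured genes derived from retrotransposon Gag, JQ1 raised 8 and lowered 1 (LDOC1L, -0.34), with a median of 0.57. BRD siRNA raised 7 and lowered 1, with a median of 0.73 beside -0.0047 over all genes. ARC, a neuronal gene whose product also forms capsids, had the largest JQ1 difference (2.28, mean 0.784 in DMSO and 7.57 in JQ1), followed by FAM127A (1.58) and PNMA1 (1.52). The FAM127 genes are near-identical copies, and no source used here says how reads were split between them. Of 8 other measured imprinted genes, JQ1 raised 3 and lowered 2. CDKN1C, which encodes a CDK inhibitor, rose by 3.07, and MEST fell by 2.99 after YAP/TAZ siRNA. SGCE, which shares a start region with PEG10 on the opposite strand and is imprinted with it, fell by 0.88 with JQ1 (SE 0.0878, limma adjusted p = 1.29e-08), from a mean of 52.8 to 28.2.

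CLIC3 belongs to the chloride intracellular channel family and takes part in recycling of integrins and other cargo from late endosomes. It stood at 5.28 and 4.45 scaled RPM in DMSO and at 52.7 and 48.1 with JQ1, a ratio of 10.4. Control siRNA gave 5.76 and 7.76, BRD siRNA mix A 6.21 and 5.12, and mix B 1.77 and 1.70. YAP/TAZ siRNA gave 15.4 and 15.5 with mix 1 and 23.5 and 27.8 with mix 2. Mix A overlapped control siRNA, mix B lay below every other library, and the YAP/TAZ siRNA libraries lay between control siRNA and JQ1. With BRD siRNA CLIC3 fell by 0.85 (SE 0.108, limma adjusted p = 4.32e-07), whereas with YAP/TAZ siRNA it rose by 1.44 (SE 0.108, limma adjusted p = 1.06e-10). The fall after BRD siRNA was 1.49 with mix B (95% interval -1.75 to -1.23). With mix A the difference was -0.21 and not called (95% interval -0.47 to 0.05, limma adjusted p = 0.133). It passed with plain RPM (-0.34, limma adjusted p = 0.024) and without control siRNA replicate 1 (-0.40, 0.0132) or mix A replicate 1 (-0.33, 0.0453). Of the 5 other CLIC genes measured, JQ1 raised 1 (CLIC4, 0.64) and lowered 4, with CLIC6 at -1.32, CLIC5 at -1.20 and CLIC1 at -0.92.

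TPPP binds and bundles microtubules. It stood at 0.162 and 0.359 scaled RPM in DMSO, from 5 and 13 reads, and at 12.2 and 10.4 with JQ1. Control siRNA gave 0.746 and 1.08, BRD siRNA mix A 0.379 and 0.374, and mix B 0.340 and 0.384. YAP/TAZ siRNA gave 2.39 and 2.98 with mix 1 and 0.510 and 0.688 with mix 2. Both BRD siRNA mixes lay below control siRNA without overlap, although on 8 to 10 reads per library, and YAP/TAZ siRNA mix 1 lay above it. With BRD siRNA TPPP fell by 0.48 (SE 0.121, limma adjusted p = 0.00129). The calls of the single mixes rested on control siRNA replicate 2, without which the adjusted p was 0.0706 for mix A and 0.0612 for mix B. After YAP/TAZ siRNA the difference was 0.34 (limma adjusted p = 0.0134), made up of 0.95 with mix 1 and -0.26 with mix 2. It was not called with edgeR (adjusted p = 0.147) or DESeq2 (0.265), nor without control siRNA replicate 1 (0.2) or YAP/TAZ siRNA mix 1 replicate 2 (0.0511). TPPP overlaps CEP72 in RefSeq, and no source used here says whether reads were counted by strand, so reads of the pair may be mixed. CEP72 fell by 0.67 with JQ1 and by 0.66 after BRD siRNA. Of 10 other microtubule regulators measured, JQ1 raised 5 and lowered 1, and BRD siRNA raised 4 and lowered 4, the latter near the 37.6% of all genes each way. MAP1A (2.68) and MAPT (2.62), both microtubule-associated proteins of neurons, had the largest JQ1 differences.

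C9orf169 encodes a small cysteine-rich protein and RNF224 a RING finger protein, and few functions are known for either. They follow each other along the same chromosome with 0 genes between them in the RefSeq table. C9orf169 stood at 2.92 and 2.95 scaled RPM in DMSO and at 76.5 and 68.2 with JQ1, and RNF224 at 0.357 and 0.359 in DMSO and at 17.2 and 14.2 with JQ1. The RNF224 values in DMSO rested on 11 and 13 reads. For C9orf169, control siRNA gave 3.84 and 3.73, BRD siRNA mix A 10.5 and 11.3, mix B 3.78 and 3.88, and YAP/TAZ siRNA 13.6 and 15.1 (mix 1) and 18.3 and 21.2 (mix 2). For RNF224, control siRNA gave 0.853 and 0.903, BRD siRNA mix A 0.853 and 1.05, mix B 0.442 and 0.469, and YAP/TAZ siRNA 3.80 and 3.41 (mix 1) and 8.45 and 8.49 (mix 2). Both genes were higher in every YAP/TAZ siRNA library than in control siRNA. With BRD siRNA, C9orf169 stood above control siRNA in mix A alone and overlapped it in mix B, whereas RNF224 overlapped it in mix A and lay below it in mix B.

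C9orf169 rose by 0.66 over both BRD siRNA mixes (SE 0.0872, limma adjusted p = 6.83e-07). For mix A alone the value was 1.31 and for mix B 0.01 (95% interval -0.20 to 0.22), and the mixes differed by 1.30 (SE 0.101, limma adjusted p = 1.02e-09). RNF224 differed by -0.16 over both BRD siRNA mixes and was not called (95% interval -0.38 to 0.06, limma adjusted p = 0.183). With mix B alone RNF224 fell by 0.37 (limma adjusted p = 0.0109), a call lost with a pseudocount of 4 (0.0942). It rested on few reads, 16 and 15 in control siRNA and 13 and 11 in mix B. After YAP/TAZ siRNA, C9orf169 rose by 1.90 (SE 0.0872, limma adjusted p = 3.08e-14) and RNF224 by 1.81 (SE 0.106, limma adjusted p = 1.59e-12). The ratio of JQ1 to DMSO was 24.7 for C9orf169 and 44.0 for RNF224.

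**Figure D2:**
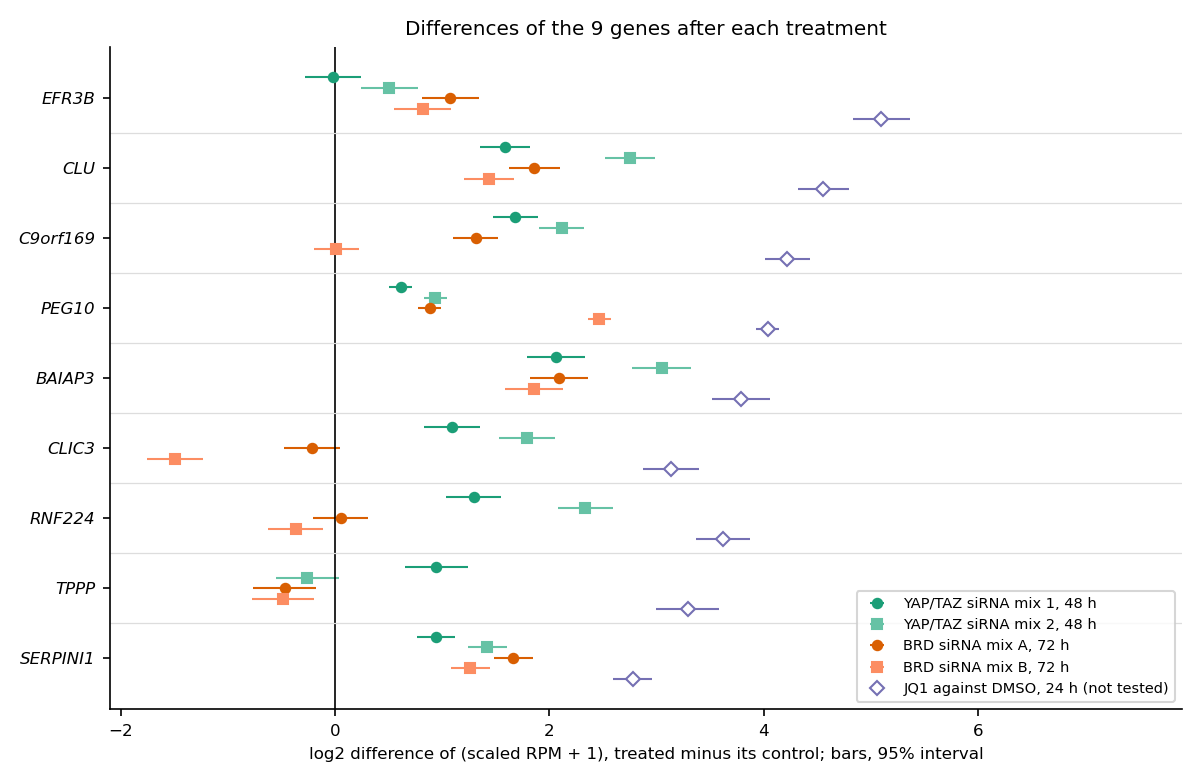
Log2 differences of the 9 genes (points) with 95% intervals (bars) after each siRNA mix against control siRNA and with JQ1 against DMSO (open diamonds, not tested because this contrast chose the genes). The BRD siRNA points lie right of 0 for EFR3B, CLU, PEG10, BAIAP3 and SERPINI1 in both mixes, left of 0 for TPPP in both, and apart for C9orf169 and CLIC3.

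Taken mix by mix, BRD siRNA mix A gave 6 members higher and 1 lower, where 37.2% and 36.1% of all genes were called. Mix B gave 5 higher and 3 lower, where 35.3% and 35.5% of all genes were called. With plain RPM, which drops the authors' scaling, the calls over all genes after mix A split 3994 higher to 6018 lower instead of 5082 to 4937. YAP/TAZ siRNA mix 1 gave 8 members higher and 0 lower (40.6% and 33.6% of all genes), and mix 2 also 8 and 0 (42.7% and 35.7%). The member not called was EFR3B with mix 1 (-0.02, 95% interval -0.28 to 0.25) and TPPP with mix 2 (-0.26, 95% interval -0.55 to 0.03). The 2 BRD siRNA mixes differed from each other in 6 of the 9 genes, a share of all genes of 50.0%, and the 2 YAP/TAZ siRNA mixes in all 9, against 65.7% of all genes. In 8 of the 9 the value was higher with YAP/TAZ mix 2, and TPPP was the exception.

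BRD siRNA and YAP/TAZ siRNA differed from each other in all 9 genes, where 81.3% of all genes did so. EFR3B, PEG10 and SERPINI1 were higher after BRD siRNA, by 0.70, 0.90 and 0.28. For PEG10 the libraries overlapped, since mix A of BRD siRNA (mean 329) lay below mix 2 of YAP/TAZ siRNA (341). The same held for SERPINI1, where mix B (23.7) lay below mix 2 (26.5). The other 6 were higher after YAP/TAZ siRNA, with the largest gaps for CLIC3 (2.29, SE 0.0884, limma adjusted p = 1.3e-15) and RNF224 (1.97, SE 0.0862, limma adjusted p = 1.03e-14). For CLU and BAIAP3 among them the libraries overlapped too. Their means in BRD siRNA mix A (21.5 and 21.6) were above those in YAP/TAZ siRNA mix 1 (17.7 and 21.0). The harvest times of the 2 treatments differ (72 h and 48 h) and cannot be told apart from the target in this comparison. With plain RPM the median of all genes in it moved from -0.0048 to -0.16, the calls split 4108 to 6990 instead of 5505 to 5617, and the SERPINI1 difference fell to 0.11 (limma adjusted p = 0.0963).

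The JQ1 and BRD siRNA levels were also set side by side, with no test, since the times differ (24 h and 72 h). The means in BRD siRNA and JQ1 were 19.9 and 34.8 scaled RPM for BAIAP3, 27.6 and 51.2 for SERPINI1, 18.7 and 76.4 for CLU and 657 and 3244 for PEG10. They were 7.37 and 72.4 for C9orf169, 3.70 and 50.4 for CLIC3, 3.42 and 98.7 for EFR3B, 0.703 and 15.7 for RNF224 and 0.369 and 11.3 for TPPP. In bulk RNA a change in the number of cells that express a gene and a change in RNA per cell cannot be told apart. The untreated bases differed as well: DMSO minus control siRNA ran from -1.03 (BAIAP3) to 0.36 (EFR3B) on the log2 scale, with CLU at -0.91 and TPPP at -0.60.

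Among all genes with a JQ1 mean of at least 5, 42 had a JQ1 difference at least as large as SERPINI1, so 33 genes shared the range of the 9. Of these 33, BRD siRNA raised 29 (87.9%, beside 37.6% of all genes) and lowered 1, ID1, at -0.34. Their median was 0.96. YAP/TAZ siRNA raised 24 (72.7%, beside 43.1% of all genes) and lowered 3, CPA4 at -1.33, UCA1 at -0.45 and MT1X at -0.38, with a median of 1.15. NEAT1, a nuclear noncoding RNA, had the largest BRD siRNA difference of the 33 (3.12). These single genes were picked out after their values were seen. MT1X, a metallothionein that binds zinc and copper, was also in this range, with a difference of 3.78 with JQ1 and 2.58 with BRD siRNA. All 4 measured metallothionein genes rose with JQ1. After BRD siRNA 3 of them rose and MT1A fell by 0.30 (limma adjusted p = 0.0251). MT1A was near the floor, with means of 0.390 scaled RPM in control siRNA, 0.104 in mix A and 0.158 in mix B. It was not called with mix B alone (limma adjusted p = 0.0836).

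**Figure D3:**
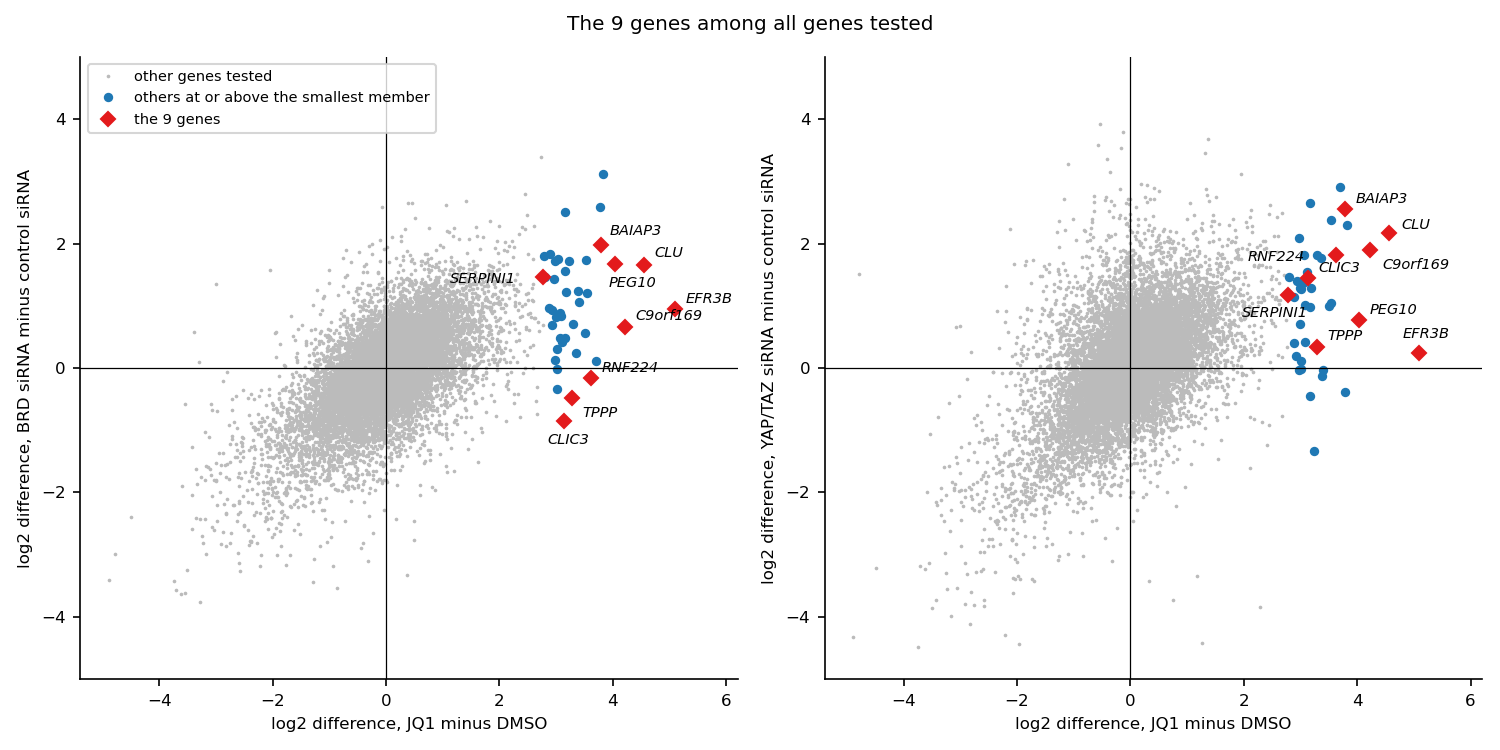
Each point is 1 gene: log2 difference JQ1 minus DMSO (x axis) against BRD siRNA minus control siRNA (left, y axis) and YAP/TAZ siRNA minus control siRNA (right, y axis). The 9 genes (red diamonds) and the 33 others with a JQ1 difference at least as large (blue) lie mostly above 0, and CLIC3 is the lowest of all 42 in the left panel.

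Genes known for their response to BET inhibitors gave a mixed result. Of 10 measured genes known to rise, other than SERPINI1, JQ1 raised 3, HEXIM1 (1.52), BRD2 (1.91) and ZCCHC24 (1.41), and lowered 7. Of the 7, 6 were histone genes, whose copies share sequence, with HIST1H2BJ at -3.28. Of 7 measured genes known to fall, all 7 fell, from MYC at -0.34 to E2F2 at -3.29.

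The genes next to the members were examined in the RefSeq gene order, taking the first 2 measured genes on either side. Of these 32 neighbours, JQ1 raised 14 and lowered 9, near the 37.6% and 36.3% of all genes, with a median of 0.12, and only SLC34A3 rose by 2-fold or more on the log2(value + 1) scale (2.14, SE 0.191, limma adjusted p = 2.07e-09). SLC34A3 encodes a sodium-phosphate cotransporter and is the gene after RNF224. Its mean was 0.175 in DMSO, 4.21 in JQ1, 0.872 in control siRNA, 0.878 and 0.277 in BRD siRNA mix A and mix B, and 1.65 and 4.48 in YAP/TAZ siRNA mix 1 and mix 2. Its highest means were in YAP/TAZ siRNA mix 2 and JQ1, the 2 groups in which RNF224 was also highest. RNF208, before C9orf169, rose by 0.61 with JQ1, and TUBB4B, after SLC34A3, by 0.86. The neighbours of CLIC3 on the same chromosome, ABCA2 and C9orf142, differed by 0.74 and -0.47. PDCD10, the measured gene before SERPINI1, differed by 0.02 with JQ1 and fell by 1.83 after BRD siRNA. BAIAP3 overlaps TSR3 in the RefSeq table, and TSR3 differed by 0.18 with JQ1 and was not called.

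**Figure D4:**
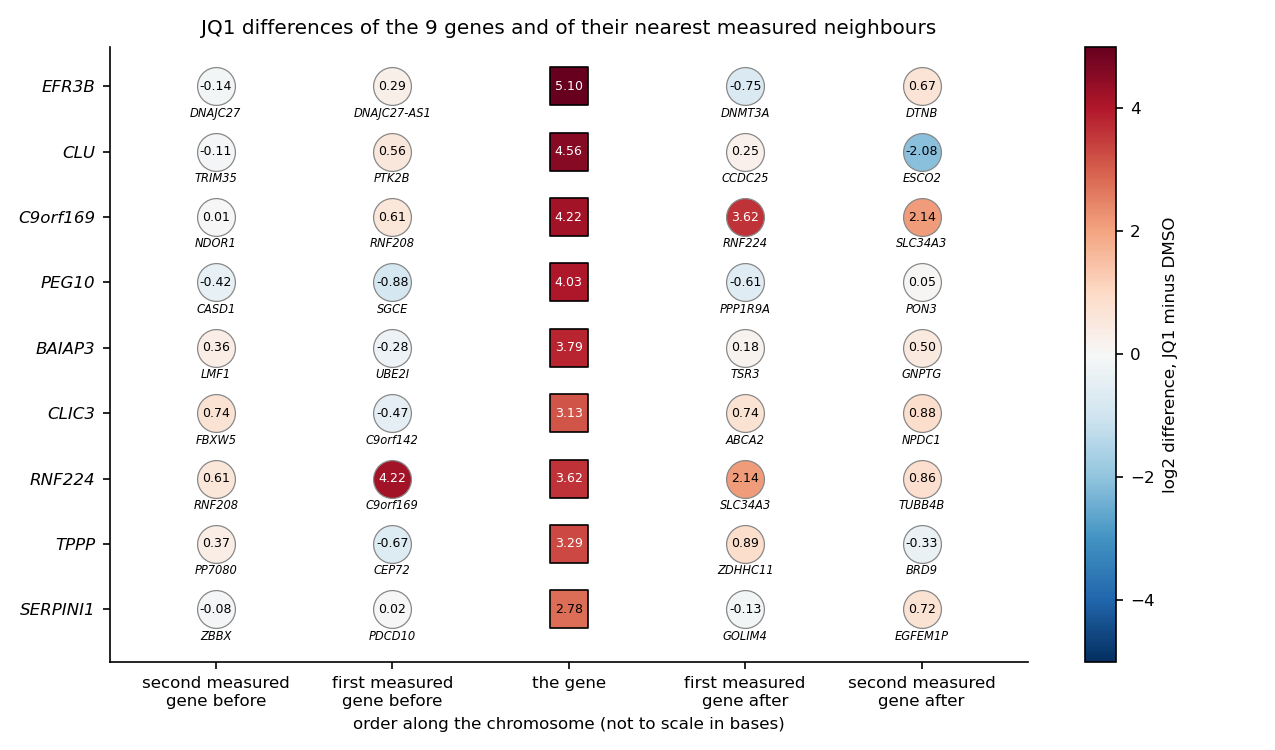
Log2 difference JQ1 minus DMSO (colour and printed value) of each of the 9 genes (squares) and of the 2 nearest measured genes on either side (circles), in chromosome order and not to scale in bases. Dark red circles appear in the C9orf169 and RNF224 rows, where the 2 genes are each other's neighbours and SLC34A3 reads 2.14.

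Over the 7 group means of log2 values, the genes most like each member by Pearson's r, among 7725 genes whose group means reach 5 scaled RPM and span at least 1 on the log2 scale, were as follows. TUBG2 (0.996) and ZNF446 followed CLU, TOM1 (0.994) and AGRN followed SERPINI1, and PNRC1 (0.991) and OSBPL7 followed BAIAP3. SYP (0.989) and MLLT3 followed C9orf169, DVL1 (0.988) and ANGPTL6 followed EFR3B, and DOK4 (0.988) and SNPH followed RNF224. IFI30 (0.984) and BRD2 (0.962) followed TPPP, CRNDE (0.983) and DOK4 followed CLIC3, and ARC (0.982) and EPB41L5 followed PEG10. These r values span 7 points that the JQ1 group dominates, and they are a description only. Over the 6 group means without JQ1, CLU and BAIAP3 ran together (r = 0.996), as did SERPINI1 with CLU (0.939) and with BAIAP3 (0.942), and RNF224 with CLIC3 (0.926). EFR3B and TPPP ran against each other (-0.69).

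Markers of cell types in which some members are best known were read beside them. Of 17 neuronal markers, 5 were in the table (SYP, ENO2, TUBB3, MAP2 and SCG2), and 4 of these rose and 1 fell with JQ1. Their summed level was 146 to 149 scaled RPM in DMSO, 1317 to 1409 in JQ1, 149 to 154 in control siRNA, 278 to 295 across the BRD siRNA libraries and 265 to 305 across the YAP/TAZ siRNA libraries. TUBB3, a neuronal tubulin also made by many cancer lines, made up most of the JQ1 sum (mean 1301). Of 8 oligodendrocyte markers MBP and CNP were measured, with sums of 243 to 244 in DMSO, 278 to 294 in JQ1, 274 in control siRNA, 295 to 456 across BRD siRNA and 395 to 466 across YAP/TAZ siRNA. Of 12 luminal markers 10 were measured, with sums of 1408 to 1411 in DMSO, 5384 to 5862 in JQ1, 1282 to 1345 in control siRNA, 1239 to 1602 across BRD siRNA and 2330 to 2482 across YAP/TAZ siRNA. KRT8, KRT18 and KRT19 made up most of the DMSO and JQ1 sums and rose with JQ1, as did AGR2, whereas EPCAM fell by 1.29 and SPDEF by 2.12, and the other 4 were not called. Of 8 basal and claudin-low markers 5 were measured, among them VIM, CD44 and AXL, with sums of 5906 to 5960 in control siRNA, 7180 to 7252 in DMSO, 9816 to 9852 in JQ1, 5027 to 6737 across BRD siRNA and 4003 to 5473 across YAP/TAZ siRNA. VIM, AXL and EGFR rose with JQ1, and CD44 and CAV1 fell by 0.80 and 0.63. Sums of 4 leukocyte markers, mostly CD68 in DMSO, JQ1 and control siRNA, were 70.6 to 71.7 in DMSO, 79.8 to 83.3 in JQ1, 67.5 to 69.7 in control siRNA, 38.2 to 42.9 across BRD siRNA and 123 to 183 across YAP/TAZ siRNA. Sums of 4 fibroblast and endothelial markers were 12.2 to 13.3 in DMSO, 18.1 to 18.9 in JQ1, 13.6 to 17.9 in control siRNA, 32.7 to 53.2 across BRD siRNA and 39.1 to 47.6 across YAP/TAZ siRNA. KDR made up most of the BRD siRNA sums, with means of 4.20 in control siRNA, 40.0 in mix A and 24.9 in mix B. After BRD siRNA only KDR was called higher, PDGFRB was lower and 2 were not called. The part of these marker changes in the values of the 9 genes was not tested.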

How the data were processed

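Total RNA had been made into stranded libraries after removal of ribosomal RNA, per the labels' protocols. Per the submitters' processing notes the tools were HTSeq 0.6.0, TopHat2 2.0.5, CASAVA 1.8.4, R 3.0.0 and edgeR, with build hg19. No source used here gives their roles, the annotation, the strand setting, the gene filter or a name for the scaling. The deposited values form a signal, RPM of a library size scaled by the authors: columns summed to 903627 to 1098052, and 99.9995% of values were whole multiples of 1 read (tolerance 0.01), so whole reads were recovered. The plan had assumed CPM. The scaling factors, taken from the column sums, equalled edgeR's default (TMM) factors of the recovered reads to within 6.5e-12. A read was worth 0.0276 to 0.0602 scaled RPM, and 0 columns belonged to other samples.

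The 14 libraries entered a single limma fit (version 3.58.1 under R 4.3.3) of log2(value + 1) on the 7 groups, with a variance trend, two-sided tests and Benjamini-Hochberg adjustment over 13674 genes. The 9 genes passed the filter through other groups as well as JQ1. Alternatives were a pseudocount of 0.25 or 4, a filter at 5 or none, plain RPM, median-ratio scaling, edgeR 4.0.16 and DESeq2 1.42.0 on recovered reads, a replicate block, only the libraries compared, and each library left out. The fit was tested on simulated data. Motifs were searched on both strands. The members and gene lists were chosen with earlier results of these data known. Genes were named as members, targeted genes, up to 4 per list, the 2 most like each member, and nearest measured neighbours.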

Additional observations from a re-analysis of the deposited data

Results flagged for a closer look

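The siRNA mixes against the same target differed in several of the 9 genes, by a limma test of the difference itself. Between BRD siRNA mix A and mix B the log2 difference was 1.30 for C9orf169 (adjusted p = 1.02e-09), 1.28 for CLIC3 (3.41e-08), 0.421 for CLU (0.00373), -1.58 for PEG10 (1.17e-15), 0.42 for RNF224 (0.00691) and 0.401 for SERPINI1 (0.000601), all limma adjusted p. The CLU call was lost without mix B replicate 2 (limma adjusted p = 0.0621), and the RNF224 call without mix A replicate 2 (0.063) and with a pseudocount of 4 (0.0725). PEG10 was the only one of these 6 that was higher in mix B.

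Between YAP/TAZ siRNA mix 1 and mix 2 the limma log2 difference was -1.17 for CLU, -1.04 for RNF224, -0.984 for BAIAP3, -0.694 for CLIC3, -0.524 for EFR3B, -0.478 for SERPINI1, -0.433 for C9orf169, -0.321 for PEG10 and 1.2 for TPPP. Adjusted p ran from 1.24e-08 (CLU, limma) to 0.00116 (EFR3B, limma). TPPP was the only one that was higher in mix 1. The sequences of the mixes were not used here, and which siRNA of a mix these differences go with was not tested.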

How the results depend on the processing

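Of the tested log2 differences of single members under the alternatives, 1168 kept direction and side of the threshold, 23 lost their call, 6 gained one and 9 changed sign. The sign changes were all of values near 0 that were never called: RNF224 after BRD siRNA mix A (-0.0211 with plain RPM, -0.0188 to 0.124 with 1 library left out), C9orf169 after mix B (-0.0658 with plain RPM, -0.00199 with DESeq2, -0.00295 to 0.0286 with 1 library left out), EFR3B after YAP/TAZ siRNA mix 1 (-0.0497 to 0.0128) and TPPP between the BRD siRNA mixes (-0.00736 to 0.0386). The number of members lower after BRD siRNA mix A was 1, with 2 under plain RPM, where CLIC3 was called, and 0 to 2 with 1 library left out. It was 0 without control siRNA replicate 2, and 2 without control siRNA replicate 1 or without mix A replicate 1. The number lower after YAP/TAZ siRNA mix 2 was 0, and 0 to 1 with 1 library left out, TPPP being called at -0.384 without control siRNA replicate 1. The number higher after YAP/TAZ siRNA was 9, with 7 under edgeR and DESeq2 and 7 to 9 with 1 library left out, because of EFR3B and TPPP. With the replicate block the EFR3B call after YAP/TAZ siRNA was lost (difference 0.243, limma adjusted p = 0.0536), the count was 8, and no other call of a member changed. Replicate numbers showed no uniform pairing of the libraries. Correlations of the replicate differences between groups ran from -0.373 to 0.254, with a median of -0.0106 and 7 of 21 over 0.1. A batch that the numbering does not follow was not tested. With plain RPM the median of all genes moved to -0.11 after BRD siRNA and 0.117 after YAP/TAZ siRNA. Low counts limit the JQ1 differences of TPPP, which ran from 1.84 (pseudocount 4) to 5.37 (edgeR), and of RNF224, from 2.17 to 5.44. The causes of these changes were not tested.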
